A study of Mus musculus with 6 samples.

Results

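The 41 genes described here are cell cycle genes grouped by phase, read as rows of a single-cell count table with 14597 genes. They fell into 12 S phase genes, namely Mcm2 to Mcm7, Pcna, Tyms, Rrm1, Rrm2, E2f8 and Pclaf, and 29 G2 and mitosis genes. The level of a list was its summed UMIs (unique molecular identifiers, which count captured transcripts) per 10000 UMIs of the same cells. The cells were TCRβ+ T cells that the study sorted from subcutaneous tumors of the mouse melanoma line B16-F10. All host animals carried the Foxp3-EGFP-DTR allele, in which EGFP and a diphtheria toxin receptor are driven by the endogenous Foxp3 gene. Cells that express Foxp3 are thereby removed by diphtheria toxin (DTx). By the labels, 3 samples came from animals given PBS and 3 from animals given DTx. The 12818 cells carried a library number from 1 to 6, and no label tied these numbers to the 6 samples. PBS and DTx were therefore not compared, no p-value was computed, and every value belongs to a library or to the pool of all libraries.

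Before a cell divides, it copies its DNA in S phase and separates the copies in mitosis, with a gap phase, G2, in between. Mcm2 to Mcm7 form the ring-shaped helicase that is loaded on DNA in G1 and unwinds it in S phase, while cyclins B1 and B2 activate Cdk1 at the entry into mitosis. T cells divide rapidly after they recognize antigen, and Mki67 and Top2a transcripts are commonly used to mark dividing T cells in tumors.

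Promoters were read for the 33 members found in a RefSeq table of the mouse build GRCm38.p6, 11 S phase and 22 G2 and mitosis genes, in a window from 250 bases before to 50 bases after the start of each gene. Mcm4, Ccna2, Esco2, Pbk, Pimreg, Aurkb, Stmn1 and Tpx2 were not matched. A gene was counted if any of its promoter windows held the letters. Letters bound by E2F factors (TTCCCGC or TTGGCGC or TTCGCGC or TTGCCGC) were present in 72.7% of the S phase genes, in 22.7% of the G2 and mitosis genes and in 10.9% of all 27025 genes with such a window. Letters of the CHR element (TTTGAA or TTCGAA), a site of the DREAM and Myb-MuvB complexes, were present in 27.3%, 72.7% and 21.7%. CCAAT boxes, bound by NF-Y, were present in 90.9%, 81.8% and 41.1%. Both a CHR and a CCAAT box, in the same window or in different windows of a gene, were present in 27.3%, 63.6% and 9.65%. All letters were sought on both strands and could overlap each other, and a match is a description of the sequence and not of binding.

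The 150 bases before the start of 3 S phase genes are shown for their E2F letters, which stand in capitals, each written 5′ to 3′ on the strand of its gene. Mcm6 encodes a helicase subunit, Rrm1 the large subunit of ribonucleotide reductase, and E2f8 a repressor that is itself an E2F target.
Mcm6: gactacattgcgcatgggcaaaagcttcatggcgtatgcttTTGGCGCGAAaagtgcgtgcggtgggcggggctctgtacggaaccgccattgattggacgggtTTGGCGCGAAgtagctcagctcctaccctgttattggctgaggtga
Rrm1: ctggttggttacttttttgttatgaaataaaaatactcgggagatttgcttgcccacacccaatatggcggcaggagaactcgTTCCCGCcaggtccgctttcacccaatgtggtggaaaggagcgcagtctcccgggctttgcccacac
E2f8: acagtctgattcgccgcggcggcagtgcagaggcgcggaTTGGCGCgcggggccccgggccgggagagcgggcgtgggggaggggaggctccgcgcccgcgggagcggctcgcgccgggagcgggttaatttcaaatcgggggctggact
For 4 G2 and mitosis genes the same stretch is shown with its CHR and CCAAT letters in capitals, on either strand (TTCAAA and ATTGG are the reverse complements of TTTGAA and CCAAT). Cdc20 activates the anaphase-promoting complex, Ube2c is its ubiquitin-conjugating enzyme, Top2a encodes topoisomerase IIα and Mki67 the antigen Ki-67.
Cdc20: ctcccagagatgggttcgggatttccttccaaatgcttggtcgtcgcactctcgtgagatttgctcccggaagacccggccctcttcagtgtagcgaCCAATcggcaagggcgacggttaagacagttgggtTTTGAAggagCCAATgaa
Ube2c: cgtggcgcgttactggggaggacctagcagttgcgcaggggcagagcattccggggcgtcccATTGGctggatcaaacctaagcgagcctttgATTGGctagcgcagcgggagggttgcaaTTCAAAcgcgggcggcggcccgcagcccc
Top2a: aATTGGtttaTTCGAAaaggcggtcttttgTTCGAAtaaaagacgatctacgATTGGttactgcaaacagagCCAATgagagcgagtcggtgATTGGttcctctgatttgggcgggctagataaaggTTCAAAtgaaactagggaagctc
Mki67: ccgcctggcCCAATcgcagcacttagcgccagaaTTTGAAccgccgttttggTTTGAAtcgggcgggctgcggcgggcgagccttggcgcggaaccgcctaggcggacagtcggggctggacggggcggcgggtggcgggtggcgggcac
The stretches came from chr1:128359706-128359855 (minus strand, Mcm6), chr7:102441545-102441694 (plus strand, Rrm1) and chr7:48881597-48881746 (minus strand, E2f8). Those of the G2 and mitosis genes came from chr4:118437344-118437493 (minus strand, Cdc20), chr2:164769779-164769928 (plus strand, Ube2c), chr11:99024190-99024339 (minus strand, Top2a) and chr7:135716380-135716529 (minus strand, Mki67). Mcm6 held overlapping E2F matches on opposite strands at 2 places, whereas Rrm1 and E2f8 held 1 match each. Top2a held 3 CHR and 4 CCAAT matches within these 150 bases.

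Cell cycle transcripts were detected in all 6 libraries, at levels that differed several-fold between them. The S phase genes summed to 3.71, 2.48, 3.88, 5.67, 8.16 and 8.22 UMIs per 10000 in libraries 1 to 6, and to 5.78 in the pool (95% exact Poisson interval 5.68 to 5.88). The G2 and mitosis genes summed to 7.88, 5.26, 8.66, 14.9, 23.6 and 23.5, and to 15.4 in the pool (15.3 to 15.6). Library 2 was lowest and libraries 5 and 6 were highest for both lists. The S phase levels of libraries 1 and 3, and both levels of libraries 5 and 6, had overlapping intervals, and all other neighbors in the order were apart. These intervals cover counting error only, and since the UMIs of a list gather in few cells, they leave out the spread between cells and between animals. Depth was 1916305 to 5127776 UMIs per library, with a median per cell of 610 UMIs in library 3 to 2499.5 in library 4.

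The 2 lists did not change in equal measure. There were 0.470, 0.471, 0.448, 0.381, 0.345 and 0.350 S phase UMIs per G2 and mitosis UMI in libraries 1 to 6, and 0.375 in the pool (0.367 to 0.382). The libraries with most cell cycle UMIs thus had the smaller S phase part, and the intervals of libraries 1 to 3 overlapped one another but not those of libraries 4 to 6.

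**Figure D1:**
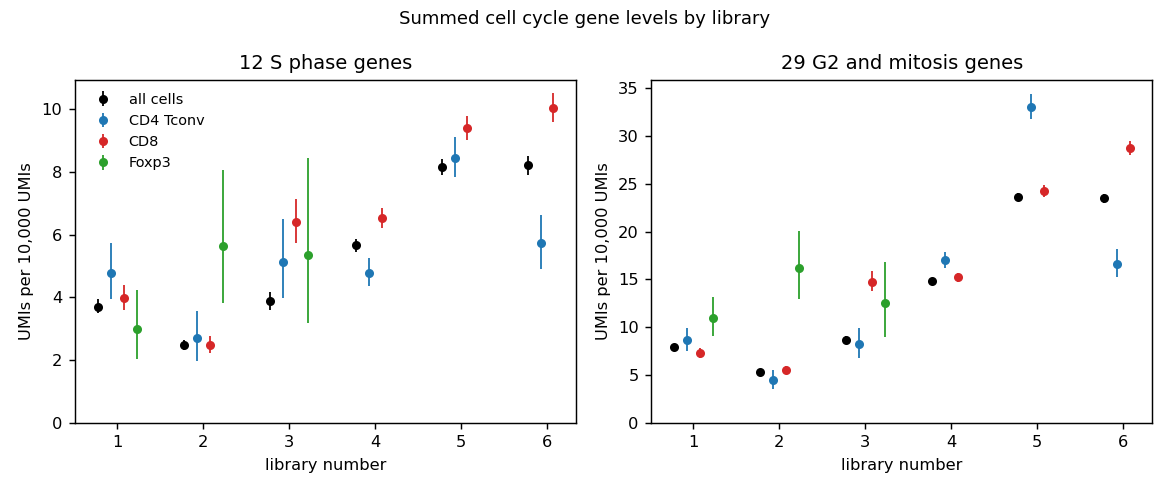
Summed level of the 12 S phase genes (left) and the 29 G2 and mitosis genes (right), in UMIs per 10,000 UMIs, by library number. Points are all cells (black), CD4+ Tconv cells (blue), CD8+ T cells (red) and Foxp3+ cells (green, libraries with over 10 such cells), and bars are exact Poisson 95% intervals. In the right panel the CD4+ Tconv cells of library 5, at 33.1, stand above the CD8+ T cells at 24.2, and the order is opposite in library 6.

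Nearly all members were lowest and highest in the same libraries as the lists, although the order of the libraries in between differed for some. The level was lowest in library 2 for 11 of 12 S phase and 28 of 29 G2 and mitosis genes, against 45.8% of the 8766 genes of the table with at least 100 UMIs. The exceptions were Mcm7, lowest in library 4, and Cenpe, lowest in library 3. It was highest in library 5 or 6 for 41 of 41 members, against 30.6% of those genes. What differed among members was the size of the change, with a median ratio of highest to lowest library of 3.35 over the S phase genes and 13.3 over the 28 G2 and mitosis genes that had a UMI in every library. Hmmr, a spindle-associated hyaluronan receptor, had 0 UMIs in library 2.

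Among the S phase genes, Pcna and most of the Mcm genes were the flattest. Mcm6 had 0.539, 0.289, 0.464, 0.583, 0.673 and 0.688 UMIs per 10000 in libraries 1 to 6, a ratio of highest to lowest of 2.38. For Pcna, the clamp that holds DNA polymerase, the values were 0.681, 0.598, 0.720, 0.759, 0.878 and 0.808, a ratio of 1.47. The other 5 Mcm genes had ratios between 1.54 for Mcm4 and 3.85 for Mcm5. Rrm2 and Tyms, which act in the supply of nucleotides, were steeper. Rrm2, the subunit of ribonucleotide reductase that carries its radical, had 0.197, 0.0818, 0.219, 0.464, 0.804 and 0.842 in libraries 1 to 6. Tyms, thymidylate synthase, had a ratio of 10.8, while that of Rrm1, 3.63, was within the range of the Mcm genes. Pclaf, a PCNA-binding protein that gave 22.8% of all S phase UMIs, had values of 0.369, 0.123, 0.511, 1.29, 2.18 and 2.42, a ratio of 19.7. E2f8 was seen in 1.01% of cells with 153 UMIs, of which 1 was in library 2.

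Among the G2 and mitosis genes, Mki67 had 0.295, 0.123, 0.245, 0.766, 1.27 and 1.16 UMIs per 10000 in libraries 1 to 6. Top2a, which untangles replicated DNA, closely resembled it, with 0.291, 0.107, 0.318, 0.712, 1.18 and 1.13. Both were thus about 10 times higher in library 5 than in library 2, with ratios of 10.3 and 11. The mitotic cyclins behaved alike: Ccnb1 had 0.0441, 0.0220, 0.0522, 0.105, 0.259 and 0.233, and Ccnb2 had 0.0746, 0.0535, 0.141, 0.410, 0.632 and 0.702. Cdc20 ran from 0.0252 in library 2 to 0.316 in library 6. Cdk1, the kinase of these cyclins, spanned a ratio of 25.9, Ube2c 23.4 and Birc5, a subunit of the chromosomal passenger complex, 18.8. Tubb5, Stmn1, Cenpa and Cks2 were among the flatter members. Tubb5, a β-tubulin that gave 26.5% of all G2 and mitosis UMIs, had 3.05, 2.92, 3.39, 3.92, 5.16 and 5.09, a ratio of 1.77. Stmn1, which destabilizes microtubules, had 0.471, 0.318, 0.694, 1.2, 2.06 and 1.92, a ratio of 6.47. Cenpa, the histone of centromeres, had a ratio of 2.71 and Cks2, a small Cdk-binding subunit, one of 4.09.

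**Figure D2:**
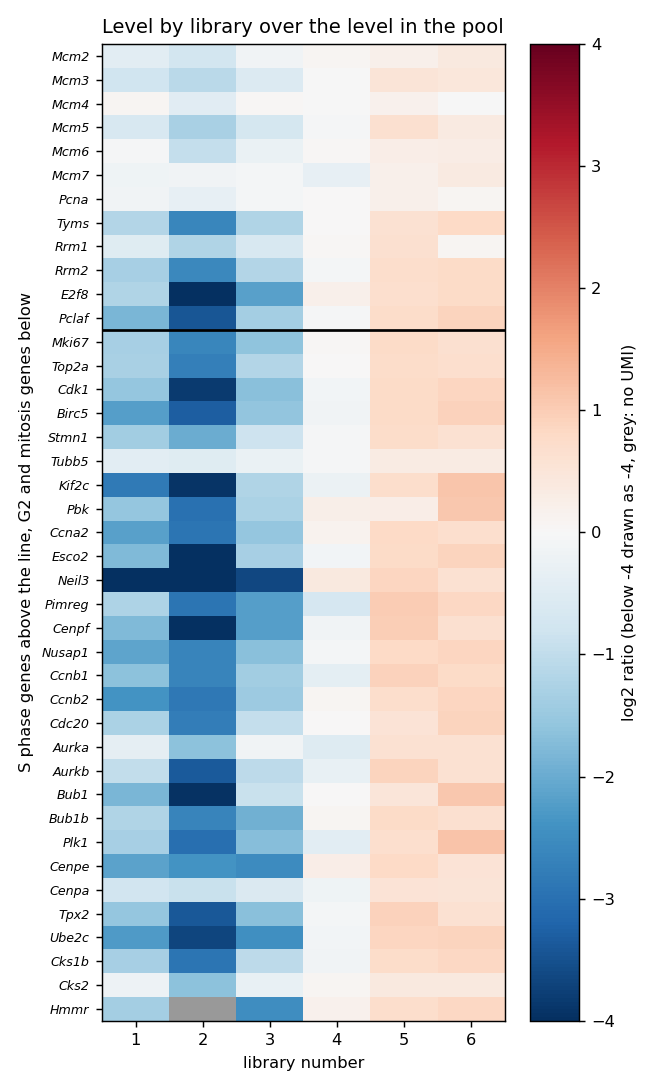
Log2 ratio of the level of each member in a library to its level in the pool, with S phase genes above the line and G2 and mitosis genes below, red for higher and blue for lower. Library 2 is the bluest column for nearly all rows, whereas the rows of the Mcm genes, Pcna and Tubb5 stay pale. Values below -4 are drawn as -4, and the grey box is Hmmr in library 2, which had 0 UMIs.

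Most cell cycle transcripts came from few cells. Cells with at least 1 Mki67 or Top2a UMI numbered 1103 of 12818, or 8.61% (exact binomial 95% interval 8.13 to 9.10), and held 18.9% of all UMIs. Their share was 4.05%, 1.10%, 2.56%, 13.2%, 18.7% and 16% in libraries 1 to 6. With each cell thinned at random to 1000 UMIs, and without the 4705 cells below that depth, the share was 3.61%, 1.06%, 6.84%, 6.85%, 10.7% and 12.4%. They were deeper than the other cells, with medians of 3411 and 1172 UMIs, and no cell type that should lack these transcripts was at hand to measure free RNA. The share was 0.603% in the cells with 200 to 399 genes and 58.9% in the 248 cells with 2000 genes or more, close to the upper end of the table at 2494 genes. These 248 cells numbered 18, 1, 2, 105, 90 and 32 in libraries 1 to 6. The paper kept only cells below an upper limit of genes per cell. How cells above that limit would change the shares and the levels by library was not tested.

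These cells held 56.8% of the S phase UMIs and 66.8% of the UMIs of the other 27 G2 and mitosis genes. The part by gene ran from 36.2% for Mcm4 to 91.5% for E2f8 in the S phase list and from 37.3% for Cks2 to 91.7% for Pbk in the other. The medians were 49.3% and 88.4%. Mcm4, Pcna, Mcm2, Mcm6 and Cks2 had the lowest parts, 36.2% to 37.3%. Relative to the other cells of the same library, all 39 members not used to choose these cells were higher past 1.5-fold, against 12.7% of the 11233 genes with enough UMIs. The ratios were lowest for Mcm6, 2.21 (1.95 to 2.50), Cks2, 2.22 (2.06 to 2.38), and Mcm2, 2.25 (1.86 to 2.71). They were highest for Aurkb, the kinase of the chromosomal passenger complex, 29.9 (20.4 to 45.4), Bub1b, a spindle checkpoint kinase, 29.2 (17.0 to 54.2), and Pbk, a mitotic kinase, 27.1 (13.7 to 61.5). E2f8 stood apart from the other S phase genes at 26.0 (14.7 to 50.2), followed by Pclaf at 11.9 and Rrm2 at 11.6. Since the cells were chosen by transcripts of the same program, these ratios are a description and not a test.

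Inside the Mki67 or Top2a cells the S phase level varied far less between libraries than over all cells. It was 15.4, 16.7, 17.0, 16.7, 18.3 and 17.3 UMIs per 10000 in libraries 1 to 6, from 86, 29, 58, 234, 372 and 324 cells, while the share of such cells ranged over 17.0-fold. The highest of these S phase levels was 1.19 times the lowest, compared with 3.32 times over all cells, and only libraries 1 and 5, with the lowest and the highest level, and libraries 4 and 5 had intervals that did not overlap. The G2 and mitosis level of the same cells, which contains the choosing genes, ranged from 37.0 in library 1 to 65.0 in library 5. Per G2 and mitosis UMI they had 0.415, 0.326, 0.450, 0.312, 0.281 and 0.301 S phase UMIs in libraries 1 to 6. The interval of library 2 (0.268 to 0.395) overlapped those of libraries 4 to 6, unlike over all cells. Since the cells were chosen by transcripts of the same program, these values are a description and not a test.

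The other genes highest in Mki67 or Top2a cells, with at least 100 UMIs, were Kif4 at 41-fold, Hist1h2ab, Aspm, Sapcd2, Shcbp1, Cdca5, Mxd3, Kif11, Gm20628 and Hist1h2ae at 21.5-fold. Kif4 and Kif11 are mitotic kinesins, Aspm is a spindle pole protein, Cdca5 encodes sororin, and Hist1h2ab and Hist1h2ae encode replication-dependent histone H2A.

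Cells were then contrasted by transcripts of the 2 lists. Those with at least 2 Mcm UMIs and none of Ccnb1, Ccnb2, Cdc20, Plk1, Aurka, Bub1 or Cenpe were called Mcm cells. Those with at least 2 UMIs of those 7 genes and none of the Mcm genes were called mitotic cells. Of the UMIs of each Mcm gene, 36.2% (Mcm4) to 52.5% (Mcm5) lay in Mki67 or Top2a cells. The Mcm cells may thus include cells outside S phase, and their part in the contrast was not tested. There were 625 Mcm cells and 164 mitotic cells, and 199 cells met both counts of UMIs. Over all 6 libraries their depth was similar, with medians of 3092 UMIs in Mcm cells and 3310 in mitotic cells. Depth was not taken for libraries 4 to 6 alone. The number of Mcm cells per library was 80, 44, 37, 132, 196 and 136, and that of mitotic cells was 6, 2, 1, 28, 58 and 69. The mitotic cells were thus nearly all in libraries 4 to 6, which had at least 10 cells of each kind and alone were compared.

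The 22 G2 and mitosis genes not used for the choice were all lower in Mcm cells past 1.5-fold, against 14% of 7304 genes, with a summed ratio of 0.238 (0.227 to 0.25) and a median log2 ratio of -2.28, compared with -0.03 over all genes. The interval lay below 1 for 21 of them, against 9.73% of all genes tested, the exception being Pbk at 0.530 (0.241 to 1.23). The contrast was strongest for Ube2c, 0.0378 (0.0289 to 0.0488), Cenpf, a kinetochore protein, 0.0387 (0.0236 to 0.0605), and Hmmr, 0.0613 (0.0347 to 0.103). It was intermediate for Mki67, 0.247 (0.202 to 0.301), and Top2a, 0.285 (0.232 to 0.351), so that these proliferation markers were present in both kinds of cell but were about 4 times higher in mitotic cells. The mildest contrasts with an interval below 1 were those of Stmn1, 0.570 (0.489 to 0.666), Tubb5, 0.511 (0.460 to 0.567), and Cks2, 0.419 (0.353 to 0.497). Cks1b, a small Cdk-binding subunit like Cks2, was at 0.217 (0.178 to 0.263), Nusap1, a spindle-associated protein, at 0.176 (0.122 to 0.252) and Kif2c, a kinesin that takes microtubules apart, at 0.0667 (0.0198 to 0.18). Since the cells were chosen by transcripts that are made together with these, the ratios are a description and not a test, and nothing is read from the shares of all genes given beside them.

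The 6 S phase genes other than the Mcm genes did not move together in this contrast, with a summed ratio of 0.997 (0.894 to 1.11). Pcna was higher in Mcm cells, 1.97 (1.39 to 2.86), and past 1.5-fold, as were 14.3% of all genes tested. Tyms was also higher, at 1.46 (1.05 to 2.07), and 6.61% of all genes had an interval above 1. Pclaf was lower, at 0.760 (0.652 to 0.889), and Rrm1, 0.858, Rrm2, 1.08, and E2f8, 1.08, had intervals that contained 1. Of the lists of further cell cycle genes, 49 of 52 S phase genes were higher in Mcm cells and 38 of them past 1.5-fold, led by Cdca7 at 5.25-fold (2.29 to 15.1), and 57 of 58 G2 and mitosis genes were lower. E2f1, a G1/S activator, was higher at 3.75-fold (1.75 to 9.46), and so was the G1 cyclin Ccnd2 at 2.69-fold (1.67 to 4.59), whereas the phosphatase gene Cdc25b, which activates mitotic Cdk1, was at 0.124 (0.0797 to 0.188). Markers of melanoma cells (Pmel, Mlana, Dct and Tyrp1) gave 46 UMIs in 4 of the Mcm cells, 21 of these UMIs in libraries 4 to 6, and 0 in the mitotic cells. Without the cells that held any such UMI the summed ratios were 0.992 and 0.238. UMIs of NK genes, with a summed ratio of 3.54 (1.08 to 19.1), and of myeloid genes, 0.760 (0.590 to 0.988), also moved with this contrast, and their part in it was not tested.

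**Figure D3:**
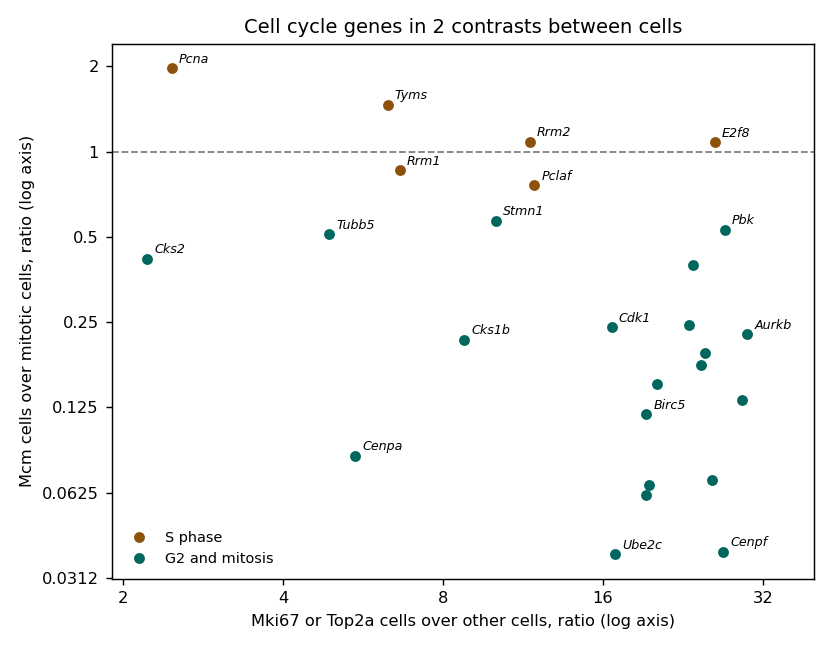
Each point is a member, placed by its ratio in Mki67 or Top2a cells over other cells (horizontal, log axis) and by its ratio in Mcm cells over mitotic cells (vertical, log axis), without the genes used to choose the cells of either contrast. All G2 and mitosis genes lie below the dashed line at 1, down to 0.0378 for Ube2c, while the S phase genes lie around it, from 0.760 for Pclaf to 1.97 for Pcna.

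Lineages were told apart by UMIs. CD4+ Tconv cells had a Cd4 UMI but none of Cd8a, Cd8b1 or Foxp3 (1205 cells), CD8+ T cells had a Cd8a or Cd8b1 UMI but none of Cd4 or Foxp3 (4497 cells), and Foxp3+ cells had a Foxp3 UMI but none of Cd8a or Cd8b1 (97 cells). A Cd3e, Cd3d or Cd3g UMI was found in 94.1%, 95.8% and 93.8% of them. Cd40lg, the CD40 ligand of helper T cells, was at 4.23 UMIs per 10000 in CD4+ Tconv and 0.548 in CD8+ T cells, and Ikzf2, the Treg cell factor Helios, was at 5.73 in Foxp3+ and 0.724 in CD4+ Tconv cells. No gating UMI was seen in 6838 cells, which were shallower (median 956.5 UMIs) and had lower levels of both lists, 4.06 and 10.9. Cd40lg was at 3.57 in these ungated cells, nearer to its level in CD4+ Tconv than in CD8+ T cells. The CD4+ Tconv gate may thus leave out many shallower cells of its lineage. What this does to the ratios of CD8+ to CD4+ Tconv cells was not tested. The 168 cells with both Cd4 and Cd8 UMIs, with a median of 4233.5 UMIs, were kept apart and had levels of 7.42 and 18.8.

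The S phase level was higher in CD8+ T cells than in CD4+ Tconv cells in 4 of 6 libraries. In CD8+ T cells the S phase level was 3.98, 2.49, 6.42, 6.53, 9.41 and 10.1 UMIs per 10000 in libraries 1 to 6, and in CD4+ Tconv cells it was 4.78, 2.70, 5.13, 4.79, 8.46 and 5.72. Matched by library, the ratio of CD8+ to CD4+ Tconv cells was 1.26 (1.19 to 1.34). The ratio fell between 0.834 in library 1 and 1.76 in library 6, and in libraries 1, 2 and 3 its interval contained 1. The Mcm genes alone gave 1.39 (1.26 to 1.53), with 0.952, 0.946, 1.05, 1.45, 1.57 and 1.70 in libraries 1 to 6, and the other S phase genes gave 1.19 (1.10 to 1.28).

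The G2 and mitosis genes showed no common direction. Their level was 7.33, 5.49, 14.8, 15.2, 24.2 and 28.7 in CD8+ T cells and 8.66, 4.44, 8.23, 17.0, 33.1 and 16.6 in CD4+ Tconv cells of libraries 1 to 6. The matched ratio was 0.997 (0.966 to 1.03), but it was made of opposite values, 0.733 (0.701 to 0.768) in library 5 and 1.73 (1.58 to 1.9) in library 6. Without library 5 it was 1.23, and without library 6 it was 0.841. Without the genes Stmn1, Tubb5, Cks1b, Esco2 and Neil3 it was 0.925 (0.889 to 0.964), higher in 3 libraries and lower in 3. In CD4+ Tconv cells, 5 cells gave 15.4% of the G2 and mitosis UMIs of library 5 and 33.8% of those of library 6. In CD8+ T cells, 5 cells gave 7.56% and 5.50%. The intervals of these G2 and mitosis ratios thus understate the error, and those of the S phase ratios also cover counting error only. Per G2 and mitosis UMI there were 0.544, 0.453, 0.435, 0.429, 0.388 and 0.350 S phase UMIs in CD8+ T cells of libraries 1 to 6 and 0.551, 0.608, 0.624, 0.281, 0.256 and 0.344 in CD4+ Tconv cells. The S phase part was thus smaller in CD8+ T cells in libraries 1 to 3 and larger in libraries 4 to 6, and the intervals of the lineages were apart in libraries 4 and 5 only. The pooled values, 0.397 (0.386 to 0.408) and 0.297 (0.280 to 0.315), mostly reflect the UMIs of libraries 4 to 6.

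By gene, the interval of the CD8+ to CD4+ Tconv ratio lay above 1 for 7 of 12 S phase genes, against 7.81% of 10384 genes, and below 1 for none. These were Mcm2, 1.43 (1.07 to 1.95), higher in 6 of 6 libraries, Mcm4, 1.33 (1.05 to 1.70), Mcm5, 1.54 (1.19 to 2.01), Mcm6, 1.55 (1.26 to 1.92), Mcm7, 1.37 (1.09 to 1.76), Rrm2, 1.40 (1.14 to 1.73), and Pclaf, 1.35 (1.2 to 1.52). Pcna was at 0.945 (0.808 to 1.11), Tyms at 1.09 (0.890 to 1.34) and Rrm1 at 1.01 (0.810 to 1.28). Mcm3, the helicase gene left, was at 1.17 (0.941 to 1.46). The intervals of single genes cover counting error only and leave out the spread between cells and between animals. Of the 29 G2 and mitosis genes, Tubb5, 1.14 (1.06 to 1.22), and Neil3, a DNA glycosylase, 1.78 (1.05 to 3.19), lay above 1, and Cenpa, 0.779 (0.695 to 0.875), Cks2, 0.851 (0.766 to 0.946), and Pimreg, a mitotic regulator, 0.592 (0.380 to 0.942), lay below it, as did 14.2% of all genes tested. The intervals of Mki67, 0.946 (0.824 to 1.09), Top2a, 0.966 (0.836 to 1.12), Ccnb1, 0.812 (0.579 to 1.16), Ccnb2, 0.911 (0.752 to 1.11), Cdc20, 0.905 (0.677 to 1.23), and Stmn1, 1.09 (0.971 to 1.22), contained 1.

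Past 1.5-fold, 2 S phase genes (Mcm5 and Mcm6) and 2 G2 and mitosis genes (Neil3 and Bub1) were higher in CD8+ T cells and 1, Pimreg, was lower, against 8.98% of 10384 genes higher and 10.9% lower. The median log2 ratio was 0.44 over the S phase genes, -0.02 over the G2 and mitosis genes and -0.05 over all genes tested. Without library 5, 15 members were higher past 1.5-fold and 0 lower, and without library 6, 2 were higher and 7 lower. The share over all genes was not taken without these libraries, so nothing about the members is read from these counts. UMIs of NK genes (121 in CD8+ T cells against 19.1 expected) and of B cell genes (132 against 21.4) also moved with this comparison, and their part in it was not tested. Melanoma markers gave 6 UMIs in the CD8+ T cells and 0 in the CD4+ Tconv cells.

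**Figure D4:**
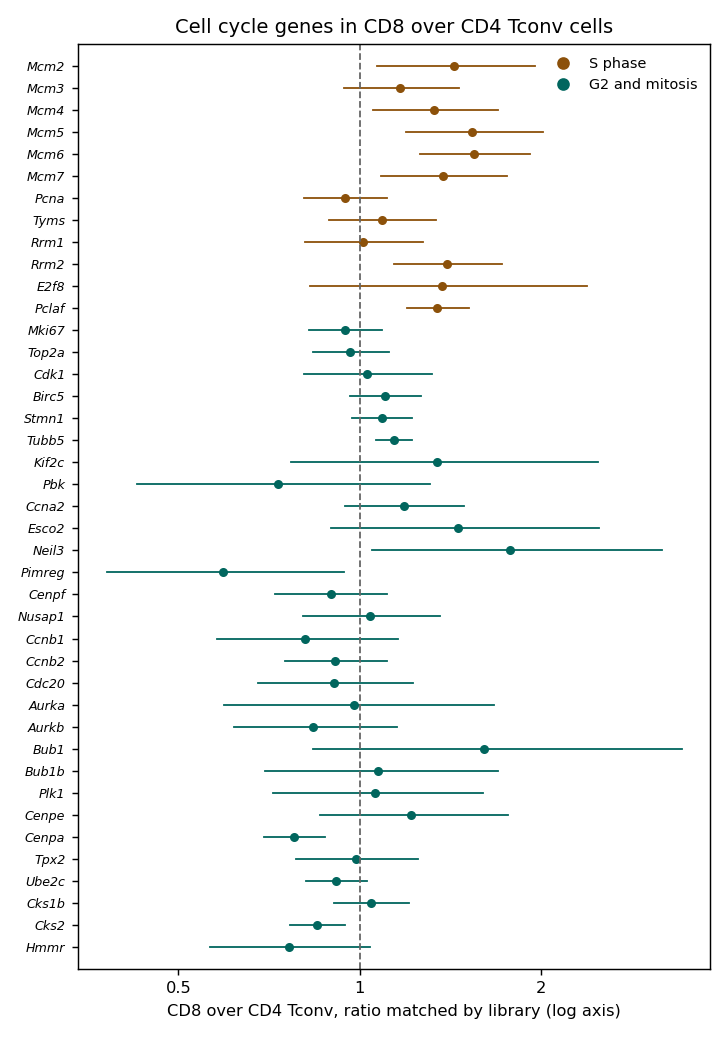
Ratio of CD8+ T cells to CD4+ Tconv cells for the 41 members, matched by library, on a log axis, with 95% counting intervals as bars and a dashed line at 1. The brown S phase genes lie mostly to the right of the line, with Mcm6 at 1.55, while the green G2 and mitosis genes lie on both sides, from 0.592 for Pimreg to 1.78 for Neil3.

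The Mcm ratio of CD8+ to CD4+ Tconv cells was also taken within and outside the Mki67 or Top2a cells. Within them it was 2.16, 1.39 and 1.57 in libraries 4, 5 and 6, which had at least 10 such cells of both lineages, and 1.61 (1.35 to 1.94) over these libraries. Over libraries 1 to 3, with 74 CD8+ and 14 CD4+ Tconv cells, it was 0.685 (0.453 to 1.07), which lowered the value over all libraries to 1.38 (1.17 to 1.65). Outside them it was 1.11, 1.06, 0.957, 1.15, 2.12 and 1.46 in libraries 1 to 6 and 1.36 (1.2 to 1.56) over all, and the interval lay above 1 in libraries 5 and 6 only. The G2 and mitosis ratio within these cells was 0.951 (0.911 to 0.993) over libraries 4 to 6, 1.61 (1.29 to 2.03) over libraries 1 to 3 and 0.981 (0.941 to 1.02) over all, and outside these cells it was 1.07 (1.002 to 1.15). Mcm cells made up 8.05% of CD8+ T cells and 5.06% of CD4+ Tconv cells, and mitotic cells made up 1.91% and 2.07%. The share of Mcm cells was the higher in CD8+ T cells in libraries 3 to 6, with 4.48%, 9.79%, 14.2% and 9.88% against 4.07%, 5.57%, 6.14% and 2.66%, and the lower in libraries 1 and 2. Median depth was 1708 UMIs in CD8+ T cells and 1622 in CD4+ Tconv cells.

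In the wider cell cycle lists both summed ratios were lower than those of the members. Of 53 further S phase genes, 43 were higher in CD8+ T cells and 10 lower, with a summed ratio of 1.12 (1.08 to 1.17). Past 1.5-fold, 9 were higher and 0 lower, against 8.98% of 10384 genes higher and 10.9% lower. The interval lay above 1 for 9 of the 53, against 7.81% of all genes tested. Examples with an interval above 1 were Cdc6, a loader of the Mcm helicase, at 2.75 (1.31 to 6.77), Gins2, a helicase cofactor, at 1.69 (1.14 to 2.58), and Prim1, a primase subunit, at 1.57 (1.08 to 2.35). The 63 further G2 and mitosis genes summed to 0.925 (0.908 to 0.943), with 28 higher and 35 lower. Of 12 CDK inhibitors and pocket proteins, which restrain the cycle, 9 were lower in CD8+ T cells, 6 of them with an interval below 1, and the share of all genes with such an interval was the 14.2% given above. They summed to 0.859 (0.832 to 0.888), higher in 0 of 6 libraries, with Cdkn1a (p21) at 0.474 (0.412 to 0.547), Rb1 at 0.675 (0.527 to 0.871), Btg2, an antiproliferative gene, at 0.778 (0.708 to 0.856) and Cdkn1b (p27) at 0.793 (0.691 to 0.913). The D-type cyclins Ccnd2, 0.665 (0.585 to 0.758), and Ccnd3, 0.798 (0.706 to 0.904), which act in G1, were lower too. Of the 10 G1 cyclins and kinases tested, 5 were higher and 5 lower, with an interval above 1 for 0 and below 1 for 3, and their median log2 ratio was 0.01.

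Foxp3+ cells were few and gave wide intervals. They numbered 49, 30 and 17 in libraries 1 to 3, 0 in libraries 4 and 5 and 1 in library 6. Their S phase level was 2.99, 5.65 and 5.35 UMIs per 10000 in libraries 1 to 3, and their G2 and mitosis level was 10.9, 16.2 and 12.5. In the same libraries, where cell cycle levels were low in general, CD4+ Tconv cells had G2 and mitosis levels of 8.66, 4.44 and 8.23.

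Matched by library, Foxp3+ cells held 246 G2 and mitosis UMIs where 147 were expected from CD4+ Tconv cells, a ratio of 1.67 (1.42 to 1.97), with 1.26 (0.997 to 1.59), 3.65 (2.66 to 5.02) and 1.52 (1.04 to 2.18) in libraries 1, 2 and 3. The S phase ratio was 0.956 (0.730 to 1.24). Of these 246 UMIs, 157 came from 5 cells and 57 of the 86 in library 2 from a single cell, so the intervals understate the error. Without library 2 the G2 and mitosis ratio was 1.30 and the S phase ratio 0.720, without library 1 they were 2.38 and 1.47, and with no matching by library they were 0.633 and 0.693. Matched by depth as well, they were 1.38 and 0.682.

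Only 10 of the 29 G2 and mitosis genes and 11 of the 12 S phase genes reached 20 UMIs over both populations. Past 1.5-fold, 6 of these G2 and mitosis genes were higher and 0 lower, and 2 of these S phase genes were higher and 2 lower, against 16.8% of 5196 genes higher and 15.6% lower. Without library 2, 4 members were higher and 6 lower, and matched by depth as well, 2 were higher and 4 lower. The share over all genes was not taken in these settings, and nothing about the members is read from their counts. The interval lay above 1 for 4 of the G2 and mitosis genes, against 6.06% of all genes tested, namely Mki67 with 16 UMIs, 3.61 (1.58 to 8.54), Ccnb2 with 9 UMIs, 6.76 (1.92 to 29), Ube2c with 11 UMIs, 4.33 (1.59 to 12.4), and Tubb5 with 71 UMIs, 1.53 (1.13 to 2.06). Tyms was lowest, with 1 UMI where 6.07 were expected, a ratio of 0.165 whose interval (0.00391 to 1.07) contained 1. Against CD8+ T cells the G2 and mitosis ratio was 1.51 (1.32 to 1.73), with 1.49, 2.95 and 0.845 in libraries 1 to 3, and the S phase ratio was 1.01 (0.793 to 1.27). In that comparison 19 of 29 G2 and mitosis genes were higher past 1.5-fold and 2 lower, and 3 of 12 S phase genes were higher and 3 lower, against 24.5% of 8986 genes higher and 19.6% lower. The interval lay above 1 for 7 of the 29 genes, against 10.3% of all genes, and most of the 19 rested on 1 to 4 UMIs in Foxp3+ cells and passed the minimum through the CD8+ T cells. Both comparisons use the same Foxp3+ cells and are not independent.

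To compare cells of unequal depth, each cell was thinned at random to 1000 UMIs, which left out 4705 cells below that depth, or 960, 1136, 1800, 89, 102 and 618 of libraries 1 to 6. Of the 8113 cells kept, 793 or 9.77% (9.14 to 10.4) had at least 5 UMIs of the 41 genes, compared with 11.2% of all cells unthinned. The share was 3.26%, 1.06%, 8.12%, 7.56%, 15.2% and 20.3% in libraries 1 to 6. Libraries 2 and 1 were lowest and 5 and 6 highest, as for the levels, while the shares of libraries 3 and 4 stood in the opposite order to their levels and give no order. There were 148 cells with 4 such UMIs and 115 with 5, so that the boundary runs through a continuum. By lineage the share was 12.3% (11.2 to 13.4) in CD8+ T cells, 11.1% (9.13 to 13.3) in CD4+ Tconv cells and 5.26% (4 of 76 cells, 1.45 to 12.9) in Foxp3+ cells, with overlapping intervals for CD8+ and CD4+ Tconv cells. These shares are not matched by library, and in libraries 1 to 3, which held nearly all Foxp3+ cells, the share was 5%, 4% and 10% in Foxp3+ and 4.55%, 2.53% and 7.5% in CD4+ Tconv cells, so no order of the lineages is read from them. In the 793 cells, S phase genes gave a median of 21.1% of the cell cycle UMIs, 152 cells had no S phase UMI and 5 had S phase UMIs only.

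**Figure D5:**
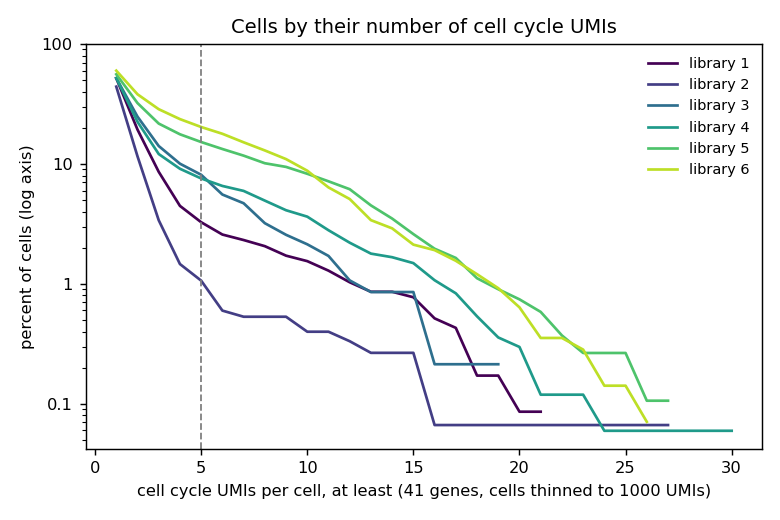
Percent of cells (vertical, log axis) with at least the number of cell cycle UMIs given on the horizontal axis, summed over the 41 genes after each cell was thinned to 1000 UMIs, with 1 line per library and a dashed line at 5 UMIs. At 5 UMIs the lines of libraries 5 and 6 stand at 15.2% and 20.3% and that of library 2 at 1.06%.

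Facts of the whole table that bear on these values were the following. T cell markers summed to 38.3 to 42.2 UMIs per 10000 in the 6 libraries, a narrow range beside that of the cell cycle genes. Melanoma markers gave 67 UMIs in 18 cells, and 76 barcodes were shared by 2 libraries. All 41 members were matched to a protein-coding gene of GENCODE vM21, and 5 of them (Ccnb1, Ccnb2, Pcna, Stmn1 and Tyms) have a pseudogene named after them with no row of its own in the table, so that shared reads could be counted for the member or lost.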

How the data were processed

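Gene expression in single T cells was measured with droplet libraries of 5′ chemistry. The authors mapped reads with Cell Ranger, to mm10 by the methods although the labels list mm9, aggregated the libraries and applied cell filters with Seurat. These filters included a lower and an upper limit of genes per cell. What the authors deposited are raw UMI counts of each gene in each cell, not normalized, and the annotation version is not given in the sources used here. No column could be tied to a sample, 0 per-sample columns were left out, and cells were grouped by library number and by UMIs of Cd4, Cd8a, Cd8b1 and Foxp3.

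Levels were summed UMIs per 10000 with exact Poisson 95% intervals, and shares have Clopper-Pearson intervals. A ratio between populations was the observed count over the count expected from the gene's share of UMIs in the comparison cells of the same library, with a conditional binomial interval in which the comparison count was reduced to its effective size. Genes needed 20 UMIs over both populations, and 0.5 was added to both counts on the log2 scale. The code was tested on simulated data. No doublet caller was run, and cells with Cd4 and Cd8 UMIs were kept apart. Python 3.11.15, numpy 2.4.6, scipy 1.17.1, pandas 2.3.3 and matplotlib 3.10.9 were used.

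The rule for naming took all 41 members, genes of the regulator lists and the 10 non-members with at least 100 UMIs highest in Mki67 or Top2a cells. Other genes named were chosen after their values were seen. The members and lists were chosen with earlier results of these data known. The alternatives concerned the denominator, depth, gates, matching, minimum counts, thinning and single libraries, and for the pooled levels and the Mcm over mitotic contrast, leaving out cells with a melanoma marker UMI was added after seeing the data.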

Additional observations from a re-analysis of the deposited data

How the results depend on the processing

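No paired analysis was possible because no library could be tied to a labelled replicate. Lineages were compared within the same libraries, with no test over the 6 libraries. Of the alternatives, 46 values stayed within the error of the reported value or, for counts of members, near its total, 59 moved and 1 reversed. The reversed value was the G2 and mitosis ratio of Foxp3+ to CD4+ Tconv cells, 0.633 with no matching by library. All but 1 of the Foxp3+ cells lay in libraries 1 to 3. A change in the balance of higher and lower members was not counted as a reversal. For the counts of members under the alternatives given in this section, the share over all genes was not taken. They show how far a count depends on the setting, and nothing about the members is read from them. Past 1.5-fold, 8 members were higher in Foxp3+ cells and 2 lower, but without library 2 these were 4 and 6. The S phase ratio of these populations, 0.956, crossed 1 with gates of at least 2 UMIs and without library 1, and counted as moved. With no matching, the G2 and mitosis ratio of CD8+ to CD4+ Tconv cells was 0.901. In that comparison 3 members passed 1.5-fold, 1 higher and 2 lower. The S phase ratio of Foxp3+ to CD4+ Tconv cells with no matching was 0.693, with 21 members past 1.5-fold, 2 higher and 19 lower. Matching by depth quartile too gave S phase and G2 and mitosis ratios of 1.18 and 0.942 for CD8+ and 0.682 and 1.38 for Foxp3+ cells. In Foxp3+ cells 6 members then passed 1.5-fold, 2 higher and 4 lower. Gates of at least 2 UMIs gave S phase ratios of 1.43 and 1.29. Stmn1, Tubb5, Cks1b, Esco2 and Neil3 were set apart as members less closely tied to G2 and mitosis. Without them the G2 and mitosis level was 9.16, its ratios 0.925 and 1.98, and the S phase to G2 and mitosis ratio 0.631.

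The S phase and G2 and mitosis levels were 8.98 and 24.0 without ribosomal and mitochondrial genes in the denominator, 5.90 and 15.8 in cells with a Cd3 UMI, and 4.77 and 11.8 as medians of the libraries. At 2-fold, 0 members passed in CD8+ and 5 in Foxp3+ over CD4+ Tconv cells, and the latter count was 26 with no minimum of UMIs and 4 with at least 50. The share of cells with at least 5 cell cycle UMIs was 3.49% thinned to 500 UMIs, 17.7% thinned to 1500, 11.2% unthinned, 15.2% for at least 3 UMIs, 6.21% for at least 8 and 7.93% without Stmn1 and Tubb5. Why these values moved was not tested beyond what each alternative changes.

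With each library left out in turn, the S phase level was 5.05 to 6.34, the G2 and mitosis level 12.9 to 17.2 and their ratio 0.368 to 0.391. The share of cells was 7.55% to 11.8%. For CD8+ over CD4+ Tconv cells the ratios were 1.14 to 1.36 and 0.841 to 1.23, with 5 to 15 members past 1.5-fold. For Foxp3+ over CD4+ Tconv cells they were 0.720 to 1.47 and 1.30 to 2.38, with 9 to 10 members. The 97 Foxp3+ cells left 19 of 29 G2 and mitosis genes with too few UMIs for a ratio to CD4+ Tconv cells.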
